A study of Mus musculus with 24 samples.

Results

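The genes that encode the proteasome were followed in the testes of male mouse pups that were either wild type (WT) or homozygous for a knockout of *Atad2* (KO). The 46 genes are all those in the count tables whose symbol is Psma, Psmb, Psmc, Psmd, Psme, Psmf or Psmg followed by a number, out of 24456 genes listed, with the testis subunit *Psma8* and the activator *Psme4* left out and described with the rest of the pathway. Of the 46 genes, 45 had enough counts to be tested. *Psmb11*, the thymus subunit, did not, with 0 to 8 counts in a library.

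Testes were collected on postnatal days 20, 22, 24 and 26, and total RNA freed of ribosomal RNA was sequenced as read pairs in 24 libraries. There were 4 WT and 4 KO libraries at each of days 20 and 22, and 2 of each at days 24 and 26. For day 20 the methods of the study name a smaller number of libraries than the labels, and every labelled library was used. The KO animals carry a lacZ cassette in *Atad2* and have lost the neo cassette and an exon through a Cre recombinase driven by the CMV promoter in the whole body, and the early exons are transcribed fused to lacZ. Reads from those exons still count toward *Atad2*. The WT animals carry neither change as far as the labels say. The labels name testis as the source but also mention purified germ cell fractions in the protocol, and markers of somatic cells were present (below). No strain was given in the labels, and nothing says which animals were littermates. A library name such as WT_d20_2 gives the genotype, the day and the replicate number. The methods of the study call the replicates biological. The labels do not tie libraries to animals, so p-values measure the spread between these libraries.

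The 26S proteasome is the protease that degrades proteins tagged with ubiquitin. Its 20S core is a barrel whose outer rings, made of the alpha subunits (Psma genes), form the gate, and whose inner rings, made of the beta subunits (Psmb genes), hold the proteolytic sites. The 19S cap sits on the gate. Its ATPases (Psmc genes) unfold and thread the substrate, and its non-ATPase subunits (Psmd genes) bind and remove ubiquitin. Activators (Psme genes) can take the place of the cap, *Psmf1* encodes the inhibitor PI31, and Psmg genes with *Psmd5*, *Psmd9* and *Psmd10* encode assembly chaperones. In the testis, *Psma8* can replace its relative *Psma7* in the core, and *Psme4* encodes the activator PA200. During the days sampled the first wave of spermatogenesis moves from spermatocytes to spermatids.

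Gene counts summed to between 10709667 and 19491935 per library. At these depths 3 counts correspond to 0.153 to 0.316 CPM, the unit for counts divided by the TMM-scaled library size. The label check held in every library, as *Atad2* stood at 76.1 to 171 CPM in WT libraries and at 30.8 to 53.0 CPM in KO libraries, and its fitted change over the 4 days was -1.37 on the log2 scale. Defining markers of the testis were present, with all 7 Sertoli cell, all 6 pachytene spermatocyte and all 5 round spermatid markers tested. WT_d20_2 stood apart from the other WT libraries of day 20. Pairs with several alignments made up 13.7% of its table and mitochondrial ribosomal RNA 3.26% of its gene counts, against at most 9.16% and 1.06% in the other 23 libraries. KO_d22_4 lay at the other end, with 4.74% and 0.170%. The counts of proteasome genes called below were therefore also made without each library in turn.

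Reads of the 46 genes made up a narrow share of each library. The share ran from 0.356% of gene counts in KO_d22_4 (95% Wilson interval 0.353% to 0.359%) to 0.447% in KO_d20_1 (0.444% to 0.451%). In the 4 WT libraries of day 20 it was 0.391%, 0.425%, 0.370% and 0.384%, the highest being WT_d20_2, and in the 2 WT libraries of day 26 it was 0.373% and 0.366%. The KO libraries of day 26 had 0.383% and 0.377%. Libraries of the genotypes overlapped at days 20 and 22, and those of KO lay just above those of WT at days 24 and 26, with only 2 libraries a group. These intervals cover counting error only and leave out the spread between libraries. The read pairs carry no molecular identifiers, so duplicate copies were not told apart.

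Subunits that occupy the same complex in equal numbers were not equally represented in the RNA. Levels between genes were compared as CPM per kilobase of exon, using the exons of GENCODE M21. *Psmc3*, a cap ATPase, was the most abundant with a mean of 149 ± 33.2 CPM per kb (SD, n = 24 libraries of all groups), followed by the alpha subunit *Psma6* with 92.9 ± 21.7 and by the cap subunits *Psmd8* with 78.6 ± 11.8 and *Psmd2* with 77.2 ± 12.2. The spreads of the last 3 overlapped, and so did that of *Psmb6* at 70.9 ± 8.88. Among the 14 constitutive core subunits the mean level over all 24 libraries ran from 18.1 for *Psma7* to 92.9 for *Psma6*, a ratio of 5.15. This mean pools days between which levels moved. In WT, *Psma6* had 75.3 at day 20 and 139 at day 26, and *Psma7* had 23.6 and 14.1. At day 20 in WT, *Psmb3* (21.1) and *Psma2* (23.0) lay below *Psma7*. Among the 6 ATPases the mean over all libraries ran from 29.6 for *Psmc4* to 149 for *Psmc3*, a ratio of 5.05. In WT, *Psmc3* had 119 at day 20 and 174 at day 26, and *Psmc4* had 31.9 and 22.4. *Psmc2*, at 27.0, lay below *Psmc4* at day 20 in WT. The 3 cap chaperones ran from 4.75 to 6.51. The 4 core chaperones ran from 1.48 for *Psmg3* to 19.9 for *Psmg1*. *Psmg1* lay above *Psma7* in the mean over all libraries, but below it at day 20 in WT (21.2 against 23.6) and in KO (22.2 against 22.9). Exons counted in all transcript models enter the length, so a gene with rarely used long exons is placed lower than its transcripts would be.

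**Figure D1:**
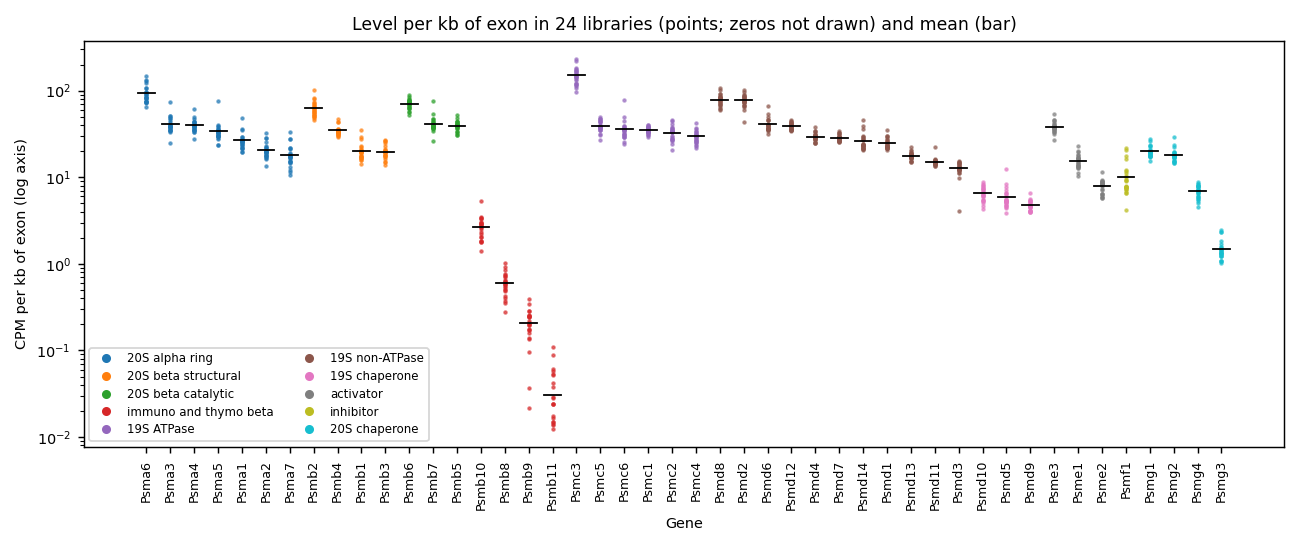
Level of each proteasome gene in CPM per kilobase of exon on a log axis, with 1 point per library and the mean of 24 libraries as a bar, ordered by class. *Psmc3* and *Psma6* lie at the top, and the immune and thymus subunits *Psmb8*, *Psmb9*, *Psmb10* and *Psmb11* lie far below the other beta subunits.

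The standard catalytic subunits far outnumbered their immune counterparts. *Psmb5*, *Psmb6* and *Psmb7* encode the chymotrypsin-like, caspase-like and trypsin-like sites, and *Psmb8*, *Psmb9* and *Psmb10*, which interferon induces, replace them in the immunoproteasome. Per kilobase, *Psmb8* was at 1.54% of *Psmb5* on average over the 24 libraries (range 0.668% to 2.48%), *Psmb9* at 0.289% of *Psmb6* (0.0338% to 0.558%) and *Psmb10* at 6.48% of *Psmb7* (4.31% to 9.18%). These ratios depend on the exon lengths, which were 3381 and 899 bases for *Psmb8* and *Psmb5* and 1705 and 3421 for *Psmb10* and *Psmb7*. Without length, mean CPM was 2.03 against 35.4 for the first pair and 4.56 against 141 for the second. *Psmb8* was found at 0.939 to 3.43 CPM, *Psmb9* at 0.0786 to 1.45 CPM with 1 to 24 counts a library, and *Psmb10* at 2.41 to 9.16 CPM. The ratios overlapped between WT and KO on each day except that of *Psmb8* to *Psmb5* at day 26 (1.79% and 2.19% in WT, 1.14% and 1.36% in KO) and that of *Psmb10* to *Psmb7* at day 24 (6.56% and 7.63% in WT, 7.68% and 9.18% in KO). Each group had only 2 libraries on those days, and the levels of 44% and 59% of all genes did not overlap at days 24 and 26. In whole testis RNA, fewer cells of a type and less RNA per cell cannot be told apart. All 9 markers of macrophages and leukocytes were measured, with summed levels of 203 to 300.2 CPM in WT and 225 to 340.1 CPM in KO at day 20, and of 243 to 356 and 232 to 252 CPM at day 26. Of the 9, only *Cd3e*, a gene of the T cell receptor complex, was called in KO. It was lower, with log2 fold changes of -2.42 at day 20 (SE 0.32, adjusted p = 0.000541), -1.67 at day 22 (adjusted p = 0.0147) and -1.52 over the mean of the 4 days (SE 0.21, adjusted p = 0.000100). It stood at 3.77, 2.95, 4.57 and 2.59 CPM in WT and at 0.725, 0.589, 0.396 and 0.880 CPM in KO at day 20. Of 11 genes of the interferon response and antigen presentation, 0 were called at any single day and 1, *Irf1*, was called lower in KO over the mean, with summed levels of 246 to 426 CPM in WT and 284 to 345 CPM in KO at day 20. The part of such cells and of interferon in the immune subunits' counts was not tested.

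WT_d20_2 carried a different mix of these transcripts from its 3 fellow WT libraries. It lay above all 3 for 32 of 45 genes and below all 3 for 7, with a median ratio to their mean of 1.35. Over all 17170 tested genes it lay above all 3 for 36.9% and below all 3 for 38.4%, with a median ratio of 0.959. All 7 alpha genes were above. The alpha subunit *Psma5* stood at 99.7 CPM against 36.3 to 43.9, the ATPase *Psmc6* at 269 against 110.1 to 135, and the cap chaperone *Psmd5* at 89.8 against 38.7 to 46.5. At the other end, the cap subunit *Psmd3* stood at 20.2 CPM against 48.0 to 68.9, *Psmf1* at 27.3 against 46.5 to 58.5, and *Psmd2* at 175 against 264 to 357. The heat map of single libraries shows KO_d20_1 and KO_d20_2 leaning in the same direction for the alpha genes, and KO_d22_4 in the opposite one. The alpha genes summed to 780 and 757 CPM in KO_d20_1 and KO_d20_2, 591 and 573 in KO_d20_3 and KO_d20_4, and 433 in KO_d22_4.

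**Figure D2:**
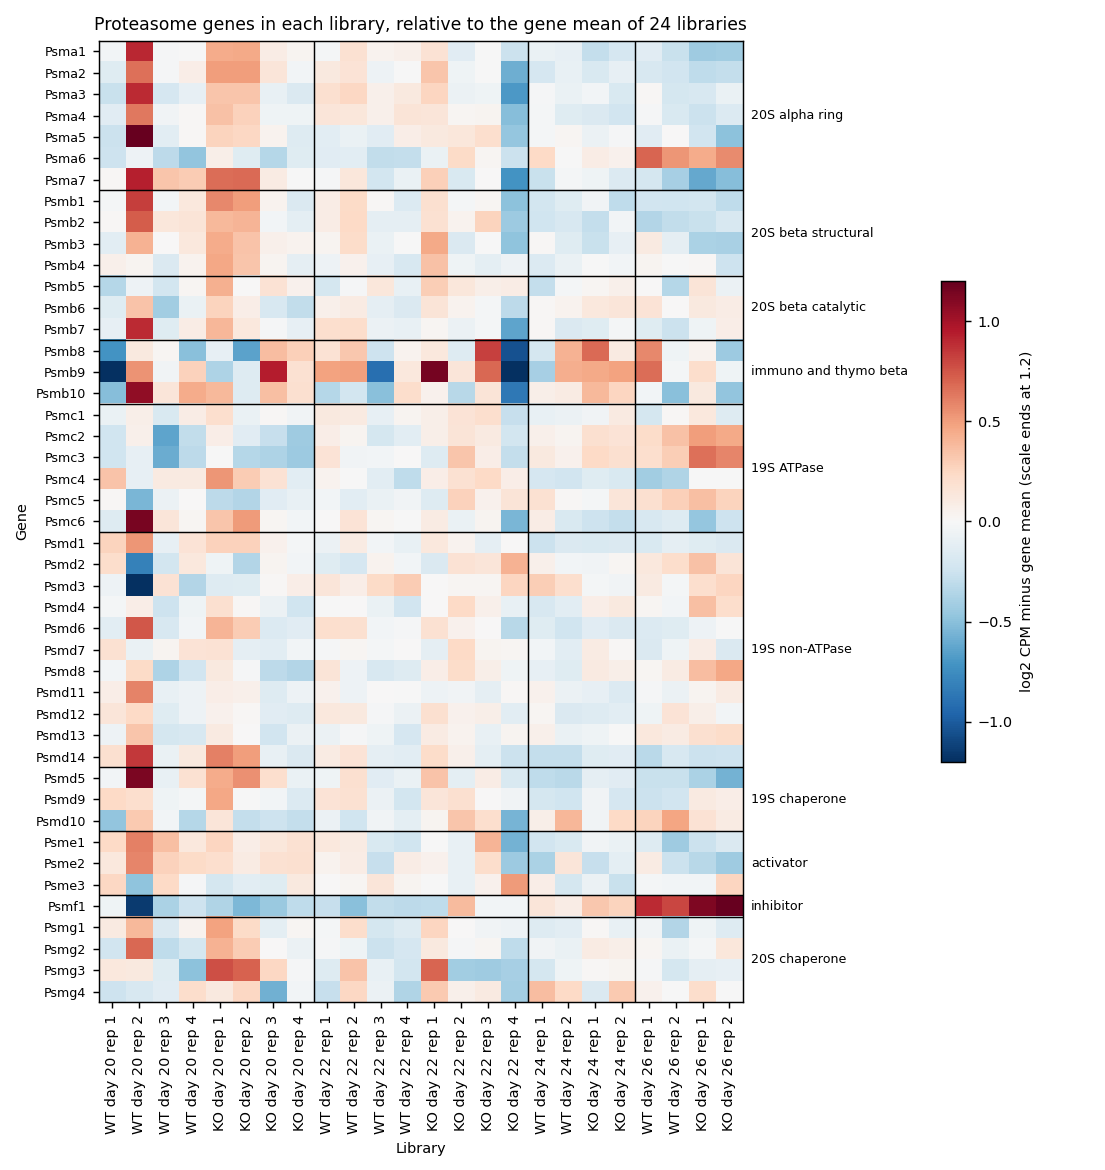
Heat map of 45 proteasome genes (rows, by class) in 24 libraries (columns, by day and genotype). Colour gives log2 CPM minus the gene's mean over all libraries, with the scale ending at 1.2 in both directions. WT_d20_2 is red for most core genes and blue for *Psmd3*, *Psmd2* and *Psmf1*, and *Psmf1* is red in the 4 libraries of day 26.

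Spread between libraries differed among the genes. The SD of log2 CPM within groups was 0.115 for *Psmd7*, 0.126 for *Psmd12* and 0.126 for *Psmd4*, all cap subunits, and 0.353 for *Psmd3*, 0.410 for *Psmb10* and 0.486 for *Psmb8*. *Psmf1* was the gene whose spread over all libraries, 0.565, most exceeded its spread within groups, 0.251.

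Upstream sequences were taken from RefSeq (GRCm38.p6, the build of the counts), which had an entry for 39 of the 46 genes, with 42 start sites. They are described because subunits of 1 complex are often regulated together. The letters CCGGAAG, bound by ETS factors, occurred on either strand within 250 bases upstream of 12 of the 42 starts, in 11 genes (28.6%), against 6.91% of all 32851 promoters of the table. CCAAT, the NF-Y box, was found at 33.3% of the starts against 33.8% of all, and TGANNNNGC, a loose form of the antioxidant response element bound by *Nfe2l1* and *Nfe2l2*, at 40.5% against 35.2%. The strict form of that element, TGACTCAGC, and the cyclic AMP element TGACGTCA occurred at 0 of the 42 starts and at 0.39% and 1.55% of all. A match is a description of the letters, not evidence of binding. Upstream refers to the RefSeq start, so some matches, as in *Psmc1* and *Psmd12*, lie inside the GENCODE span of the gene. The 12 stretches of 30 bases that hold CCGGAAG are printed on the gene's strand with the match in capitals, which reads CTTCCGG where it lies on the opposite strand.
Psma6, chr12:55398682-55398711 (+): agagccaccacCCGGAAGcccgcggaccgc
Psmc1, chr12:100110163-100110192 (+): tggtggatgcaCTTCCGGcggtggcgattt
Psmc2, chr5:21785180-21785209 (+): accagtgagcaCTTCCGGgatggggctcgc
Psmc2, chr5:21786712-21786741 (+): gcgcggagctaCTTCCGGtggggaagagaa
Psmc6, chr14:45329713-45329742 (+): aggcgggccagCCGGAAGgggcggagccag
Psmd11, chr11:80428585-80428614 (+): taggaacgcgagggcgggtCTTCCGGgtgt
Psmd12, chr11:107479498-107479527 (+): gatgagcgggcgaCTTCCGGtgcgagtgac
Psmd2, chr16:20651615-20651644 (+): tccgcagggcgCTTCCGGtctggaggacaa
Psmd4, chr3:95042721-95042750 (-): ttacagctgttCCGGAAGctgctgcgaagg
Psmd6, chr14:14120972-14121001 (-): cagagacgcgaCCGGAAGtcagactggcgg
Psme3, chr11:101316095-101316124 (+): gggcacaaggcCCGGAAGctccgacagccc
Psmg1, chr16:95991011-95991040 (-): ctcgcggcggaCCGGAAGctcttaggttct

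*Psmf1* and *Psma6*, the genes with the largest rises with age in WT (below), are shown with bases upstream of a RefSeq start. *Psma6* has more than 1 start in the table, and the one shown is the downstream one. The window of the upstream start, chr12:55383972-55384221, held CCAAT on both strands and TGANNNNGC on the opposite strand, but no CCGGAAG. Bases next to the start shown that fall in an annotated exon are left out. Capitals mark CCGGAAG and a TGANNNNGC match on the opposite strand in *Psma6*. None of the 5 motifs was found in the *Psmf1* window. That window lies inside the GENCODE span of the gene, chr2:151715812-151744186, and bases upstream of that span were not searched.
Psma6, chr12:55398575-55398774 (+): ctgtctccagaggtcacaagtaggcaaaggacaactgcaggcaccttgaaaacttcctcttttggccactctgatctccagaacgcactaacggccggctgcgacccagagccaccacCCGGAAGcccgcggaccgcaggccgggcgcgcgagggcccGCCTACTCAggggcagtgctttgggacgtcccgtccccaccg
Psmf1, chr2:151741311-151741560 (-): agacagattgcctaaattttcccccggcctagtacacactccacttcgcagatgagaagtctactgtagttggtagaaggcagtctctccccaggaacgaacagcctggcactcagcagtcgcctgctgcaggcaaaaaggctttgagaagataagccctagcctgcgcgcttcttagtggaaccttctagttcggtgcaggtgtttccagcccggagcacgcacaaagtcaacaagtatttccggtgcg

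The first comparison asked whether loss of ATAD2, a bromodomain ATPase that acts on chromatin, changed the RNA of the proteasome. At none of the 4 days was any of the 45 tested genes called changed in KO (edgeR quasi-likelihood test, adjusted p under 0.05), while 3.34%, 2.51%, 0.0874% and 0.0466% of all 17170 genes were called at days 20, 22, 24 and 26. At an unadjusted p under 0.05 there were 2, 1, 0 and 1 of the 45 genes, against 12.5%, 14.6%, 5.23% and 11.5% of all genes. Those 4, against 8.72%, 7.70% and 4.02% of all genes higher at days 20, 22 and 26, were *Psmb5* and *Psmg3*, a core chaperone, at day 20, *Psmf1* at day 22 and the ATPase *Psmc4* at day 26, all higher in KO. DESeq2 called 0 at each day as well. With each day fitted alone, 4 genes were called at day 26, *Psmc3*, *Psmc4*, *Psmd8* and *Psmf1*, all higher in KO, in a fit that called 12.8% of all genes it tested. A joint test of whether the KO difference varied between days called 0 of the 45 genes (0.00582% of all genes), with 0 at an unadjusted p under 0.05 against 9.06% of all.

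Averaged over the 4 days, 0 of 45 genes were called in edgeR, against 7.08% of all genes, and 5 had an unadjusted p under 0.05, against 23.2% of all. All 5 were higher in KO, against 11.8% of all genes. *Psmb5* had a log2 fold change of 0.22 (SE 0.07, 95% interval 0.07 to 0.38, adjusted p = 0.0647), which is a 1.17-fold level. *Psmd4*, a ubiquitin receptor of the cap, had 0.18 (SE 0.06, adjusted p = 0.0744) and *Psmc4* had 0.20 (SE 0.07, adjusted p = 0.102). *Psmf1* had 0.21 (SE 0.10, adjusted p = 0.197) and the cap subunit *Psmd8* had 0.16 (SE 0.08, adjusted p = 0.204). DESeq2 called 3 genes in the same contrast, *Psmb5*, *Psmc4* and *Psmd4*, all higher, and 9.64% of all genes. Without WT_d20_2, edgeR called 2, *Psmb5* with adjusted p = 0.0451 and *Psmd4* with adjusted p = 0.0352, and 7.89% of all genes. It called 1 gene without WT_d20_1 (*Psmc4*), without WT_d20_4 or KO_d20_2 (*Psmb5*) and without WT_d22_1 (*Psmd4*), fits that called 7.25% to 9.51% of all genes.

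The intervals were narrow for most genes. Over the mean of the 4 days, the 95% interval lay within 0.5 on the log2 scale in either direction for 44 of 45 genes. The exception was *Psmb9*, an immune subunit with few counts, whose interval reached 0.84. The median standard error was 0.0966. The median log2 fold change over the 45 genes was 0.02 (0.01 to 0.05 with 1 library left out) and over all genes 0.01. By single days the intervals were wider, and 35, 32, 11 and 11 of the 45 genes lay within 0.5 at days 20, 22, 24 and 26.

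**Figure D3:**
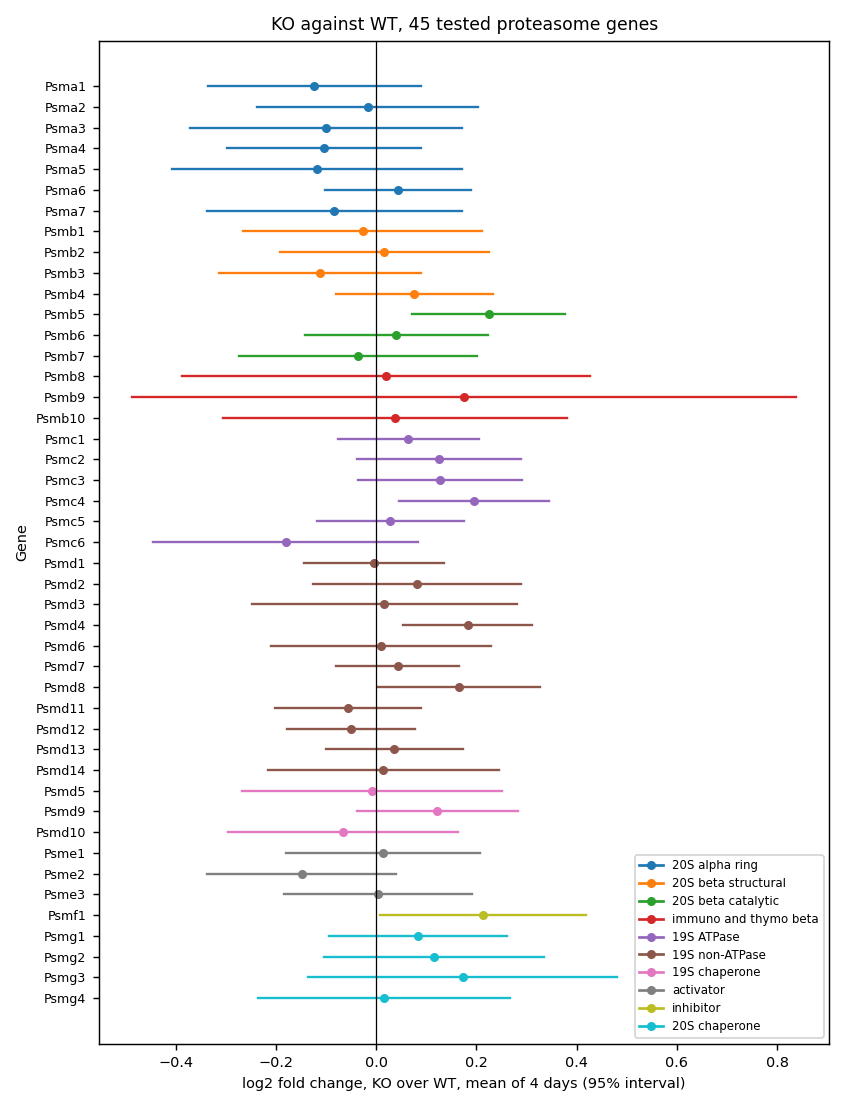
Log2 fold change of KO over WT, as the mean of 4 days, for 45 proteasome genes. Points are estimates and bars 95% intervals, coloured by class. All estimates lie between -0.18 and 0.22, and *Psmb9* has the widest interval.

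The values of *Psmb5* in single libraries show the size of the difference. At day 20 it stood at 27.7, 33.6, 30.2 and 35.7 CPM in WT and at 47.2, 35.2, 39.6 and 36.3 CPM in KO. At day 22 the values were 30.4, 34.7, 38.6 and 33.0 in WT and 43.0, 38.7, 36.8 and 37.3 in KO. At day 24 they were 28.9 and 34.6 in WT and 35.7 and 36.7 in KO, and at day 26 they were 35.2 and 27.8 in WT and 39.2 and 33.4 in KO. The genotypes overlapped at days 20, 22 and 26, and KO lay above WT at day 24. *Psmb6* and *Psmb7*, the other standard catalytic subunits, had mean log2 fold changes of 0.04 (SE 0.09, adjusted p = 0.838) and -0.04 (SE 0.11, adjusted p = 0.896).

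The remaining named classes gave the following values for the mean of the 4 days. The immune subunits *Psmb8*, *Psmb9* and *Psmb10* had log2 fold changes of 0.02 (SE 0.20), 0.18 (SE 0.32) and 0.04 (SE 0.16), with adjusted p = 0.973, 0.798 and 0.930. *Psme1* and *Psme2*, which encode the interferon-induced PA28 activator, had 0.01 (SE 0.09) and -0.15 (SE 0.09), and *Psme3*, which encodes its nuclear relative, had 0.00 (SE 0.09), with adjusted p of 0.955, 0.351 and 0.988. The 7 alpha genes ranged from -0.12 to 0.04, with 6 below 0. The 4 core chaperones ranged from 0.02 to 0.17, all above 0. Groups that did not overlap between genotypes numbered 0, 1, 25 and 22 of the 45 genes at days 20, 22, 24 and 26, against 4.71%, 8.09%, 44.0% and 59.0% of all genes, with only 2 libraries a group at the last 2 days.

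Spermatid markers differed between the same libraries. All 5 round spermatid markers were called higher in KO at day 20, where their summed level was 2.89 to 7.70 CPM in WT and 7.39 to 68.7 CPM in KO, and all 8 elongating spermatid markers were called higher over the mean of the 4 days. Somatic markers differed as well. Of 5 endothelial markers 3 and of 5 peritubular markers 2 were called lower in KO over the mean, and 1 of 6 Leydig cell markers (*Insl3*) was called higher. The endothelial markers summed to 66.2 to 108 CPM in WT and 50.3 to 75.5 CPM in KO at day 20, and to 51.6 to 52.0 and 32.8 to 37.2 CPM at day 26. The part of these cells in the proteasome values was not tested. With the round spermatid minus pachytene score as a covariate, 0 of the 45 proteasome genes were called and 5 had an unadjusted p under 0.05 over the mean of the 4 days, against 1.36% and 14.6% of all genes.

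The next comparison followed the genes from day 20 to day 26, as spermatids accumulate. In WT, 12 of 45 genes were called (26.7%), 5 higher and 7 lower, against 42.5% of all genes (24.4% higher and 18.1% lower). In KO, 13 were called (28.9%), 7 higher and 6 lower, against 52.2% of all genes (27.2% higher and 24.9% lower). Called in both genotypes were 7 genes, each in the same direction in both, which is 58.3% of the WT calls and 53.8% of the KO calls. Over all genes, those called in both were 83.3% of the WT calls and 67.9% of the KO calls. Those higher at day 26 were the inhibitor gene *Psmf1*, the alpha gene *Psma6* and the ATPase genes *Psmc2*, *Psmc3* and *Psmc5*. Those lower were *Psma7*, the alpha gene that *Psma8* replaces in germ cells, and the cap chaperone gene *Psmd5*. The median log2 fold change over the 45 genes was -0.12 in WT and -0.16 in KO, against -0.04 and -0.07 over all genes. With 1 library left out it ran from -0.21 (without WT_d20_3) to -0.05 (without WT_d20_2, against -0.07 over all genes) in WT and from -0.21 (without KO_d26_1) to -0.06 (without KO_d20_1, against -0.06) in KO. With DESeq2 size factors it was -0.09 and -0.07, against -0.01 and 0.02 over all genes. With the replicate number as a block it was -0.25 and -0.26, against -0.02 and -0.07 over all genes.

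*Psmf1* had the largest change of any of the 45 genes in both genotypes. PI31, its product, binds the core and inhibits it in vitro. The gene lies at chr2:151715812-151744186 on the minus strand (mm10). In WT it stood at 58.5, 27.3, 46.5 and 50.9 CPM at day 20, at 50.001, 42.8, 49.4 and 48.6 at day 22, at 66.8 and 64.4 at day 24 and at 113 and 105 at day 26. In KO it stood at 47.0, 41.8, 44.6 and 49.0 CPM at day 20, at 49.0, 78.6, 59.3 and 59.1 at day 22, at 75.9 and 72.8 at day 24 and at 132 and 139 at day 26. In both genotypes every library of day 26 lay above every library of the earlier days. The log2 fold change from day 20 to day 26 was 1.25 in WT (SE 0.19, 95% interval 0.85 to 1.65, adjusted p = 1.91e-05), a 2.38-fold rise, and 1.57 in KO (SE 0.19, 1.18 to 1.97, adjusted p = 2.50e-06), a 2.97-fold rise. Without WT_d20_2, whose value was the lowest, the WT change was 1.03. The KO change minus the WT change was 0.32 (95% interval -0.26 to 0.90, adjusted p = 0.766).

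*Psma6* departed from the rest of the alpha ring. It lies at chr12:55384222-55418454 on the plus strand. In WT it went from 94.1, 107, 90.2 and 80.5 CPM at day 20 to 182 and 161 at day 26, and in KO from 118, 101, 88.5 and 101 to 153 and 166. No library of day 20 reached the level of day 26 in either genotype. The log2 fold change was 0.88 in WT (SE 0.14, adjusted p = 2.04e-05) and 0.64 in KO (SE 0.14, adjusted p = 0.000648). The other 6 alpha genes all had estimates below 0 in both genotypes, but without WT_d20_2 those of *Psma3* and *Psma5* in WT were 0.05 and 0.01. Of these, *Psma7* was called lower in WT at -0.74 (SE 0.25, adjusted p = 0.0223), and *Psma1*, *Psma2* and *Psma7* were called lower in KO at -0.69, -0.59 and -0.96 (SE 0.21, 0.22 and 0.26, adjusted p = 0.00917, 0.0275 and 0.00388). *Psma7* (chr2:180036374-180042433, minus strand) stood at 54.1, 102, 67.2 and 66.1 CPM in WT at day 20, the high value being WT_d20_2, and at 46.0 and 40.4 at day 26. In KO it stood at 85.0, 85.4, 57.1 and 53.4 CPM at day 20 and at 34.8 and 37.5 at day 26.

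The 6 cap ATPase genes split. *Psmc3* (chr2:91054009-91066369, plus strand) stood at 323, 355, 252 and 307 CPM in WT at day 20 and at 439 and 469 at day 26, and in KO at 379, 299.7, 294 and 281 CPM and at 600.4 and 572. Its log2 fold change was 0.55 in WT (SE 0.15, adjusted p = 0.00669) and 0.90 in KO (SE 0.15, adjusted p = 7.34e-05), and the difference between genotypes, 0.35, had a 95% interval of -0.11 to 0.81. *Psmc2* rose by 0.54 in WT and 0.66 in KO (SE 0.16 and 0.15, adjusted p = 0.00789 and 0.00145), and *Psmc5* rose by 0.37 and 0.53 (SE 0.14 and 0.14, adjusted p = 0.0381 and 0.00333). Without WT_d20_2 the WT change of *Psmc5* was 0.21 and not called. *Psmc4* was lower at day 26 in WT, by a log2 fold change of -0.51 (SE 0.15, adjusted p = 0.00826), and had -0.24 in KO (adjusted p = 0.164). *Psmc1* and *Psmc6* were not called, with estimates of -0.07 and -0.55 in WT and -0.04 and -0.58 in KO, and without WT_d20_2 *Psmc6* had -0.22 in WT and was called lower in KO (-0.58, adjusted p = 0.00407). The ATPase genes summed to 671 to 961 CPM in WT and 696 to 917 in KO at day 20, and to 903 and 969.6 in WT and 1126 and 1088 in KO at day 26.

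Of the other cap genes, the scaffold gene *Psmd1* and *Psmd14*, which encodes the deubiquitinase of the cap, were called lower in WT, at -0.38 and -0.57 (SE 0.14 and 0.23, adjusted p = 0.0318 and 0.0481). Without WT_d20_2, *Psmd14* had -0.38 and was not called. In KO they had -0.31 and -0.50 with adjusted p = 0.0594 and 0.0664, and both were called lower without WT_d20_2 (adjusted p = 0.0154 and 0.0170). *Psmd4* and *Psmd8* were called higher in KO, at 0.31 and 0.55 (SE 0.12 and 0.15, adjusted p = 0.0409 and 0.00517), and had 0.05 and 0.15 in WT with adjusted p = 0.757 and 0.458 (*Psmd8* had 0.23 in WT without WT_d20_2). *Psmd5* (chr2:34849734-34874968, minus strand) went from 40.2, 89.8, 38.7 and 46.5 CPM to 34.2 and 34.2 in WT and from 55.9, 60.0, 47.2 and 38.9 to 31.5 and 27.7 in KO. Its log2 fold change was -0.65 in WT (SE 0.26, adjusted p = 0.0458) and -0.77 in KO (SE 0.26, adjusted p = 0.0165). Without WT_d20_2 the WT value was -0.33 and not called. All libraries of day 26 lay below all of day 20 in both genotypes.

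Among the beta genes, *Psmb2* was called lower in WT (-0.61, SE 0.21, adjusted p = 0.0219) and *Psmb3* in KO (-0.62, SE 0.20, adjusted p = 0.0130), both structural subunits. The catalytic genes *Psmb5*, *Psmb6* and *Psmb7* had -0.01, 0.14 and -0.45 in WT and -0.13, 0.12 and -0.10 in KO, with adjusted p between 0.126 and 0.952, and the immune genes *Psmb8*, *Psmb9* and *Psmb10* had 0.54, 0.49 and -0.62 in WT and -0.22, -0.17 and -0.36 in KO, with adjusted p between 0.143 and 0.843. *Psme1* was called lower in WT (-0.63, SE 0.19, adjusted p = 0.0115) and *Psme2* in KO (-0.55, SE 0.19, adjusted p = 0.0179), and their partners *Psme2* in WT and *Psme1* in KO had -0.38 each (adjusted p = 0.104 and 0.0970). *Psme3* had -0.06 in WT and 0.20 in KO. Without WT_d20_2 the WT values of *Psmb5*, *Psmb6*, *Psmb7*, *Psmb10* and *Psme3* were -0.03, 0.25, -0.20, -0.38 and -0.24, with none called, and *Psmb2* was called lower in KO (-0.41, adjusted p = 0.0381). None of the 4 core chaperones was called in either genotype.

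**Figure D4:**
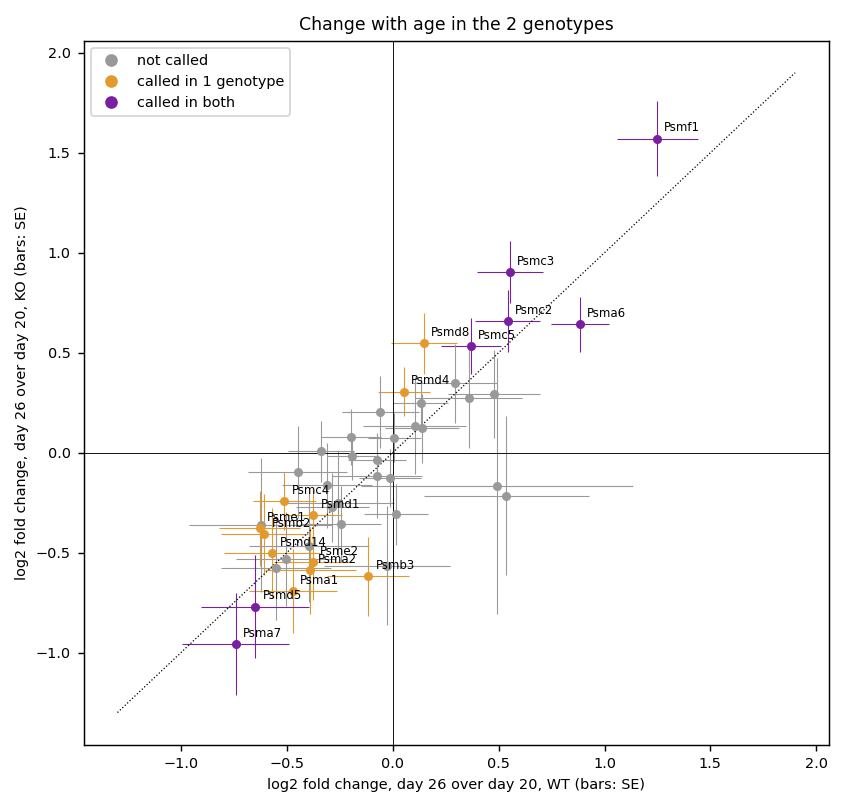
Log2 fold change from day 20 to day 26 in WT (horizontal axis) and KO (vertical axis) for 45 proteasome genes, with standard errors as bars. Purple marks the 7 genes called in both genotypes and orange those called in 1. The dotted line marks equal change, and *Psmf1* lies at the far upper right.

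No gene was shown to change differently with age in the 2 genotypes. The test of the difference between the changes called 0 of the 45 genes and 0 of all genes in edgeR, with 0 and 10.8% at an unadjusted p under 0.05, and DESeq2 also called 0 of the 45. The estimates ran from -0.75 for *Psmb8* to 0.40 for *Psmd8*, whose 95% intervals were -1.91 to 0.41 and -0.06 to 0.86. A call in 1 genotype alone is therefore not a difference between genotypes.

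**Figure D5:**
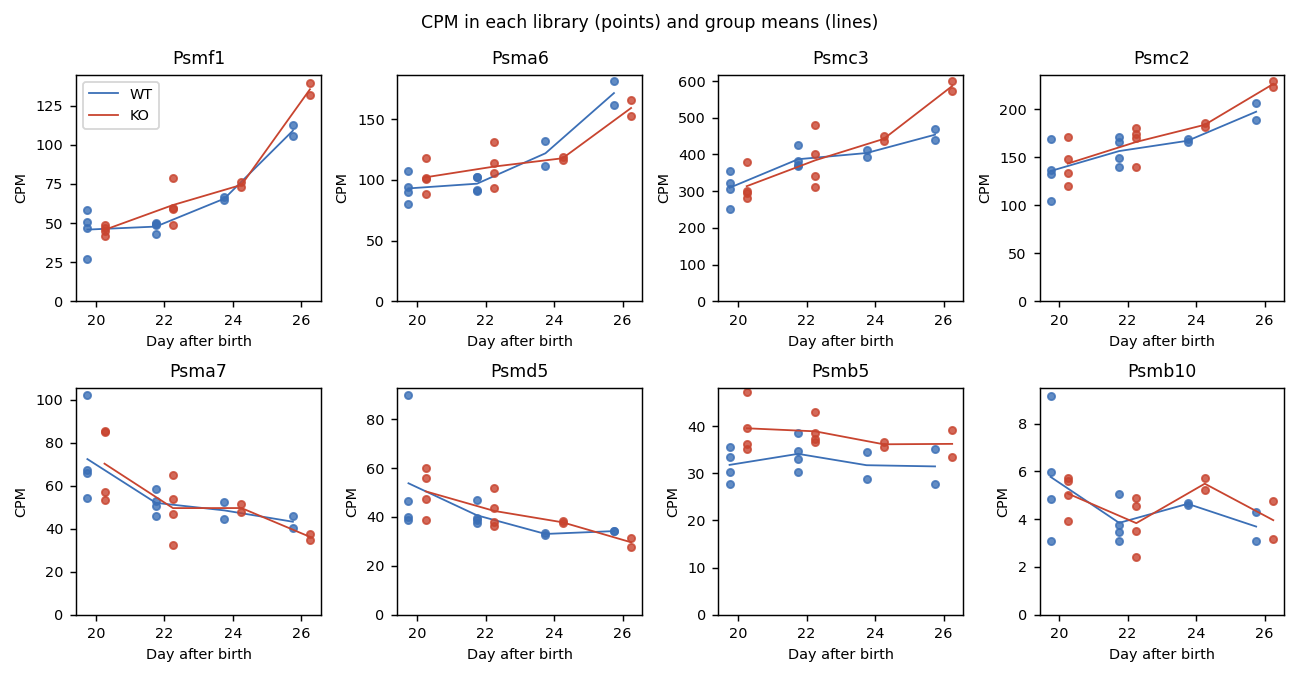
CPM of 8 proteasome genes by day after birth, with WT in blue and KO in red. Points are libraries and lines join group means. *Psmf1* is highest at day 26 in both genotypes, *Psma7* and *Psmd5* decline, and KO points of *Psmb5* lie above most WT points.

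The day 20 libraries weighed on these counts. Without WT_d20_2, 11 genes were called in WT and 22 in KO, against 46.4% and 59.1% of all genes, and in WT the calls of *Psmc5* (adjusted p = 0.143), *Psmd5* (0.0968) and *Psmd14* (0.0915) were lost. Gained were *Psmd7* (lower) and *Psmd10* (higher) in WT, and in KO *Psma4*, *Psma5*, *Psmb1*, *Psmb2*, *Psmc6*, *Psmd1* and *Psmd14* (lower) and *Psmd2* and *Psmd13* (higher). Over the 24 fits with 1 library left out, the WT calls were missing in 11 for *Psmc5*, 10 for *Psmd5* and 9 for *Psmd14*. Without WT_d20_1 there were 18 calls in WT, against 44.5% of all genes. With 1 library of day 26 left out, WT calls fell to 5 (without WT_d26_1) or 3 (without WT_d26_2), against 30.1% and 27.0% of all genes, and KO calls to 7 (without KO_d26_1) or 6 (without KO_d26_2), against 38.4% and 33.4%. With day 22 in place of day 20 as the start, an alternative added after the data were seen, 2 genes were called in WT (*Psma6* and *Psmf1*) and 4 in KO (those and *Psmc2* and *Psmc3*), all higher, against 14.3% and 25.1% of all genes. *Psma6* and *Psmf1* kept their call in both genotypes whichever library was left out.

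The cell make-up of the testis moved over the same days. All 5 round spermatid and all 8 elongating spermatid markers were called higher at day 26 in both genotypes. The round spermatid markers summed to 2.89 to 7.70 CPM in WT and 7.39 to 68.7 CPM in KO at day 20 and to 351 to 392 CPM in WT and 355 to 381 CPM in KO at day 26. Of 7 Sertoli cell markers 5 were called lower in WT and 6 in KO, and their sums fell from 391 to 485 CPM in WT and 365 to 416 CPM in KO to 259 to 269 and 218 to 236 CPM. Of 5 peritubular markers 3 and 4 were called lower, of 5 endothelial markers 2 and 3, and of 7 spermatogonial markers 5 and 4. Leydig cell markers were called higher, 6 of 6 in WT and 2 of 6 in KO, and so were 4 of 6 pachytene markers in both. Of 5 markers of early meiosis 2 were called lower in WT, and 3 lower and 1 higher in KO. A fit with the stage score as a covariate left 0 calls in WT, over all genes too, and 1 in KO, *Psmf1* (1.36, adjusted p = 0.00886), against 13.4% of all genes. In that fit the standard errors were larger. The score was -3.94 to -2.51 in the WT libraries of day 20 and 2.38 and 2.39 in those of day 26. In KO it was -2.68 to 0.43 at day 20 and 2.02 and 1.97 at day 26. With no overlap between the ages, the fit cannot separate stage from age. *Psmf1* had 0.84 in WT (SE 0.48, adjusted p = 0.682), and *Psma6* had 0.79 in WT (SE 0.36, adjusted p = 0.586) and 0.59 in KO (SE 0.23, adjusted p = 0.0819). *Psma7* had -0.02 in WT (SE 0.58, adjusted p = 0.999) and -0.56 in KO (SE 0.37, adjusted p = 0.312).

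Of 43 other genes of the ubiquitin-proteasome pathway, 38 were tested. None was called lower in KO on any day or over the mean of the 4 days. *Ddi1*, a testis protease related to the one that processes *Nfe2l1*, was among those called higher at day 20 and over the mean. At day 20 *Ddi1* stood at 1.26, 0.527, 0.520 and 2.30 CPM in WT and at 8.12, 2.68, 15.7 and 24.3 in KO. The genotypes did not overlap. Its log2 fold change at day 20 was 3.44 (SE 0.59, adjusted p = 0.00609), and over the 4 days it was 1.03 (SE 0.29, adjusted p = 0.0396). Without WT_d20_2 these were 3.25 (adjusted p = 0.0357) and 0.99 (adjusted p = 0.0600). The spermatid markers given above were higher in the same KO libraries.

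From day 20 to day 26, 17 of the 38 pathway genes were called in WT (44.7%), 12 higher and 5 lower, against 42.5% of all genes, and 22 in KO (57.9%), 15 higher and 7 lower, against 52.2%. The counts ranged from 12 to 20 in WT and from 13 to 27 in KO when 1 library was left out. Among the largest rises in WT were those of *Ubqlnl*, which encodes a ubiquilin-like protein, and *Ddi1*. *Ubqlnl* had 0 counts in all 4 WT libraries of day 20 and 40.1 and 60.9 CPM at day 26, at least 215-fold higher when 3 counts in each library are taken as the floor. *Ddi1* rose by 6.68 on the log2 scale (SE 0.64, adjusted p = 2.35e-07). In KO, the fit without WT_d20_2 gave rises of 3.33 for *Ddi1* and 7.83 for *Ubqlnl*, both called (adjusted p = 9.41e-05 and 3.41e-05). The largest declines in WT were those of the ubiquitin-activating enzyme *Uba6* at -1.07 (SE 0.31, adjusted p = 0.00780, and -0.67 and 0.00647 without WT_d20_2), *Zfand2b*, a proteasome-bound factor, at -0.95 (SE 0.28, adjusted p = 0.00895) and *Nfe2l2*, the stress regulator that can induce proteasome genes, at -0.57 (SE 0.15, adjusted p = 0.00502). Without WT_d20_2 *Zfand2b* had -0.88 in WT, a larger decline than that of *Uba6*. In KO that fit gave *Zfand2b* -0.39, not called (adjusted p = 0.218).

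The testis forms of the complex behaved differently from each other. *Psme4* rose by 1.32 in WT and 1.04 in KO on the log2 scale (SE 0.12 each, adjusted p = 8.84e-08 and 2.11e-06). Its level per kilobase went from 1.18 ± 0.34 times that of *Psme3* in WT at day 20 (SD, n = 4) to 2.76 and 3.07 times at day 26. *Psma8* was not called, with -0.23 in WT (adjusted p = 0.336) and -0.38 in KO (adjusted p = 0.0898). Without WT_d20_2 it had -0.06 in WT (adjusted p = 0.761) and was called lower in KO (-0.38, adjusted p = 0.0165). Per kilobase *Psma8* exceeded *Psma7* in each of the 24 libraries, 4.06 to 11.4 times, with means of 5.08 ± 0.91 in WT and 5.52 ± 0.62 in KO at day 20 (n = 4 each) and values of 6.501 and 7.97 in WT and 7.60 and 8.58 in KO at day 26. The ratio at day 26 lay above that of every library of day 20 in both genotypes.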

How the data were processed

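The deposited files hold raw counts of read pairs per gene symbol, 1 table per library. According to the labels and methods, the authors aligned stranded, ribosome-depleted reads to mm10 with STAR 2.7.11b and counted exonic pairs with HTSeq by strand, discarding pairs with several alignments or outside exons. The version of the gene models is not given in the sources used here. The 5 tally rows were kept out of totals. Pairs without an exon took 45.1% to 58.5% and those with several alignments 4.74% to 13.7% of a table, so genes with near-identical copies may be under-counted. Exons of *Psmb5*, *Psmd1* and *Psmg3* overlap another gene on the same strand by 12.1%, 4.14% and 9.68% of their bases, where pairs could be lost.

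Groups came from the sample titles. Tests used the edgeR 4.0.16 quasi-likelihood fit (R 4.3.3, TMM scaling, filterByExpr with a minimum count of 10, robust) with 1 coefficient for each of 8 groups over 24 libraries, two-sided, with Benjamini-Hochberg adjustment over 17170 genes. A gene was called at an adjusted p under 0.05. CPM uses TMM-scaled library sizes. Tested contrasts were the KO minus WT difference on each day, its mean, a joint test of differences between days, day 26 against day 20 in each genotype, and the difference of these. Alternatives were DESeq2 1.42.0, its size factors, no filter, single-day fits, a replicate block, a stage score and leaving out each library. The fit was tested on simulated counts. No 2 libraries of a group agreed within sampling noise. Genes were placed with GENCODE M21 by symbol, all 46 matching.

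The members and gene lists were chosen with earlier results of these data known. Named are the genes called in a KO contrast, the catalytic, immune and thymus beta genes, *Psme1* to *Psme3*, in each age contrast the 5 largest called rises and falls, and those not tested. Other genes were named after their values were seen, where a count or a library singled them out. A result for 1 gene of the pathway is not reported here.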

Additional observations from a re-analysis of the deposited data

Results flagged for a closer look

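In groups of 4 libraries, each of 45 genes was checked for a library far from the other 3 (gap to the nearest of the others over the range of the group, above Dixon's 95% limit), in 180 groups in all. The limit was passed 20 times, and chance gives about 1 in 20 groups. WT_d20_2 accounted for 11 of these, always on the high side: *Psma1* at 144 CPM (others 75.0 to 76.7), *Psma3* at 291 CPM (others 129.6 to 145), *Psma4* at 144 CPM (others 84.4 to 94.1), *Psma5* at 99.7 CPM (others 36.3 to 43.9), *Psmb1* at 161 CPM (others 88.3 to 98.5), *Psmb2* at 122 CPM (others 74.7 to 82.0), *Psmb7* at 258 CPM (others 126 to 147), *Psmc6* at 269 CPM (others 110.1 to 135), *Psmd6* at 188 CPM (others 98.3 to 109.6), *Psmd5* at 89.8 CPM (others 38.7 to 46.5), *Psmg2* at 50.2 CPM (others 25.1 to 26.9). The other 9 were spread over 6 libraries. In KO_d20_1, *Psmd10* was high at 10.4 CPM (others 7.72 to 7.93). In KO_d22_1, *Psmb4* was high at 85.6 CPM (others 62.0 to 64.9) and *Psmg3* was high at 6.78 CPM (others 3.10 to 3.15). In KO_d22_4, *Psma5* was low at 31.5 CPM (others 47.2 to 49.9) and *Psmb7* was low at 89.6 CPM (others 133 to 141) and *Psmd3* was high at 73.5 CPM (others 61.5 to 62.3). In WT_d20_3, *Psmb4* was low at 59.6 CPM (others 68.7 to 70.0). In WT_d22_2, *Psmc6* was high at 137 CPM (others 122 to 125). In WT_d22_3, *Psme2* was low at 11.2 CPM (others 14.1 to 14.6). The part of library quality in these values was not tested. The check was not made over all genes, so its counts are not a result about the proteasome genes. Over all 17170 tested genes, WT_d20_2 lay above all 3 fellow libraries for 36.9% and below all 3 for 38.4%.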

How the results depend on the processing

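In each of the 24 fits that left out 1 library, 0 genes were called at any single day, in the joint test and in the difference of the age changes. For the 4-day mean the count ranged from 0 to 2. The count from day 20 to day 26 ranged from 3 (without WT_d26_2) to 18 (without WT_d20_1) in WT and from 6 (without KO_d26_2) to 22 (without WT_d20_2) in KO. Over the mean of the 4 days, DESeq2 size factors in edgeR gave 1 call (*Psmb5*) and the DESeq2 Wald test 3. With each day fitted alone, 4 genes were called at day 26, all higher in KO: *Psmc3* (0.38), *Psmc4* (0.39), *Psmd8* (0.37) and *Psmf1* (0.32), in a fit that estimates the spread from 4 libraries and called 12.8% of all genes. The stage score gave 0 calls in WT and 1 in KO for the age change, and day 22 as the start gave 2 and 4. Under the stage score the WT estimates of *Psmc4*, *Psmc5* and *Psmd14* changed sign to 0.018, -0.082 and 0.161, with none called. Of the other genes called in WT, *Psma7*, *Psmb2*, *Psmc3*, *Psmd1* and *Psmd5* had -0.02, -0.24, 0.23, -0.05 and -0.16, and *Psma6*, *Psmc2*, *Psme1* and *Psmf1* had 0.79, 0.60, -0.92 and 0.84. In KO, the called genes *Psma1*, *Psma2*, *Psma7*, *Psmb3*, *Psmc5* and *Psmd5* had -0.46, -0.36, -0.56, -0.41, 0.30 and -0.50, and *Psma6*, *Psmc2*, *Psmc3*, *Psmd4*, *Psmd8*, *Psme2* and *Psmf1* had 0.59, 0.69, 0.73, 0.33, 0.69, -0.67 and 1.36. The immune genes *Psmb8*, *Psmb9* and *Psmb10*, not called in either fit, had -0.93, -1.10 and -1.60 in WT under that score (SE 0.95, 1.54 and 0.79). The estimates of *Psmb8* and *Psmb9* had thus changed sign. Under the stage score the median over the 45 genes was 0.02 in WT and -0.05 in KO. The stage score did not overlap between days 20 and 26, so this fit cannot separate stage from age. The cause of the changed estimates was not tested. Whether replicate numbers pair the libraries was not settled. Same-numbered WT and KO libraries had correlations of their deviations of -0.46 to -0.03 at day 22, where none correlated best with its own number. At day 20 the correlations were 0.07 to 0.41. At days 24 and 26 they were 0.39 and 0.42, where 2 libraries a group give the same value for both numbers. A pairing or a shared batch can therefore not be excluded. With the replicate number as a block, 20 genes were called for the age change in WT and 23 in KO, against 45.2% and 53.2% of all genes, and no KO against WT count changed. At days 24 and 26, with 2 libraries a group, the 95% interval lay within 0.5 on the log2 scale for only 11 of 45 genes.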
